A study of Mus musculus with 9 samples.

Results

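The genes described here encode the non-collagen glycoproteins and proteoglycans of the extracellular matrix, together with the hyaluronan synthases Has1 and Has2. They were listed by name, and each was read from the array probe sets whose platform annotation gives exactly 1 gene symbol equal to that name or to an older name of it. Of the 43 genes, 40 were named on the array and 39 passed the filter on detection, out of 11796 genes that passed it in all. Spp1, Fbn1 and Efemp2 were not analysed here because no probe set carried their symbol alone. Mfap4 had 1 probe set, which was called absent on all 9 arrays.

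The extracellular matrix is the network of secreted proteins and sugars that surrounds cells. Besides collagen, it holds adhesive glycoproteins such as fibronectin, matricellular proteins that signal to cells more than they bear load, elastic fibers on a scaffold of microfibrils, proteoglycans with long sulfated sugar chains, and the laminin sheets of the basement membrane. In a healing wound a provisional matrix rich in fibronectin, hyaluronan and versican is laid down first and is replaced later by fibrous tissue, and in adipose tissue stromal cells are known as the main makers of these proteins.

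Stromal vascular fractions (SVFs), the cells that sink after enzymes have dissolved fat tissue and its adipocytes have floated off, came from the inguinal subcutaneous fat of wild type Balb/c mice, given as 10 weeks old in the labels and as male in the study's methods. RNA was taken on days 0, 1 and 3 after priming, with 3 individual mice and 1 array each for every day. The labels call the procedure surgical injury of the fat, and the study describes mincing of the fat with ligation of its feeding artery, with day 0 as the nonprimed group. All groups share strain, genotype and digestion, and no group is a genetic model. The digest mixes stromal cells with those of vessels and blood, so in these bulk samples fewer cells of a type and less RNA per cell cannot be told apart.

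Per array 24106 to 26299 of the 45101 probe sets were detected (called present), and the ratio of 3′ to 5′ actin signal, a measure of RNA integrity, was 1.15 to 1.32. Stromal cells, for which the fraction is named, were represented: 15 of the 16 stromal markers listed were named on the array and all 15 passed the filter, Pdgfra among them. Levels below are MAS5 signals on a linear scale, which the authors scaled to a common trimmed mean of 500. Changes are differences of mean log2 signal with the standard error of the limma fit, for 3 mice against 3. Genes were called where the p adjusted by the Benjamini-Hochberg method (BH) was under 0.05. Signals were compared between days within 1 probe set and not between genes.

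On day 1 after priming 8 of the 39 genes were higher than on day 0 and 13 were lower. These are 20.5% and 33.3% of the genes, beside 10.7% called higher and 17.9% called lower among all genes tested. On day 3 the balance had turned, with 14 genes higher (35.9%, against 13.6% of all genes) and 7 lower (17.9%, against 12.5% of all genes). From day 1 to day 3, 19 genes were higher (48.7%, against 9.66% of all genes) and 1 was lower, Dcn (2.56%, against 4.54% of all genes). The median log2 change of the 39 genes was -0.21 on day 1, 0.06 on day 3 and 0.43 between the days, where that of all genes was -0.13, -0.03 and 0.09. With a limit of 2-fold in addition, 5 genes were higher and 1 lower on day 1, and 10 were higher on day 3 both against day 0 and against day 1, with none lower. For all genes that limit left 3.65% higher and 3.36% lower on day 1, 4.44% higher and 3.48% lower on day 3, and 2.08% higher and 1.6% lower from day 1 to day 3. When each array was centred on its median, which moved the day 1 median of all genes from -0.13 to -0.01, the split over all 11796 genes on day 1 turned from 1268 higher and 2110 lower to 1699 higher and 1272 lower, and that of the set became 8 and 11. From day 1 to day 3 the split over all genes turned as well, from 1140 higher and 536 lower to 659 and 860, and that of the set became 15 and 4, so the percentages above hold for the authors' scaling. The comparisons of days 1 and 3 share the day 0 arrays, so they are not independent of each other.

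**Figure D1:**
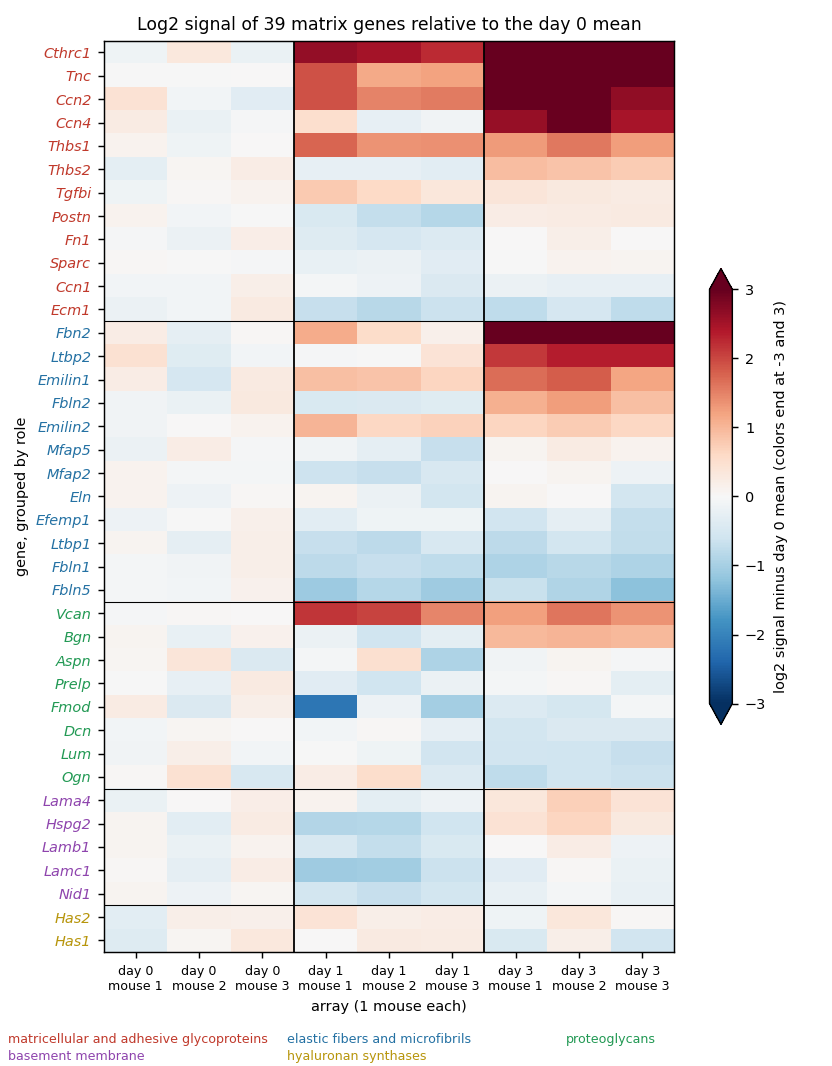
Log2 signal of the 39 genes on each of the 9 arrays (columns, 1 mouse each), relative to the gene's mean on day 0; red is higher and blue lower, with colors ending at -3 and 3, and rows grouped by role. Cthrc1, Tnc, Ccn2, Ccn4, Fbn2 and Ltbp2 are red on all 3 arrays of day 3, and the basement membrane rows are blue on day 1, apart from Lama4.

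Promoter sequence of 4 genes is shown because they stand for different courses: Tnc rose on both days and was higher on day 3 than on day 1, Ltbp2 rose on day 3 and not on day 1, Vcan rose by day 1 and stayed high, and Fbln5 fell on both days. The windows are the 250 bases before the gene's start in RefSeq on mouse build GRCm38.p6, written 5′ to 3′ along the gene, and all 4 lie on the minus strand: Tnc at chr4:64047016-64047265, Ltbp2 at chr12:84876492-84876741, Vcan at chr13:89742513-89742762 and Fbln5 at chr12:101819120-101819369. For Tnc and Fbln5, which have 2 windows each, the start farthest upstream was used. Capitals mark TATAAA (the TATA box core) and GGGCGG (an SP1 motif) on either strand, with GGGCGG read from the other strand as CCGCCC.
Tnc: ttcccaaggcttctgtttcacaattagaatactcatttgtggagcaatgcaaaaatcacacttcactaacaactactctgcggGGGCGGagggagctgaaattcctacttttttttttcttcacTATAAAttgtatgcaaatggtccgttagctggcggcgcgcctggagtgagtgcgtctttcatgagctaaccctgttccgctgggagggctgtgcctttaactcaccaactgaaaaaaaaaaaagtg
Ltbp2: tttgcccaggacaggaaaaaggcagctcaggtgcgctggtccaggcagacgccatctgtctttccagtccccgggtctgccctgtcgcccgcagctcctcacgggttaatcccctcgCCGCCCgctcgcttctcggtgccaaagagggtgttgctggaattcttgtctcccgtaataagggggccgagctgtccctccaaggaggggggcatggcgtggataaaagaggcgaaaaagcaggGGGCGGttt
Vcan: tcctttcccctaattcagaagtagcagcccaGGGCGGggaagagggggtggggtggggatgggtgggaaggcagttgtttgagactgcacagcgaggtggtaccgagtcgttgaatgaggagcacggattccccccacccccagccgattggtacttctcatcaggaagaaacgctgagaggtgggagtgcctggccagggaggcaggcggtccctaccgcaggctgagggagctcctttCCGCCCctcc
Fbln5: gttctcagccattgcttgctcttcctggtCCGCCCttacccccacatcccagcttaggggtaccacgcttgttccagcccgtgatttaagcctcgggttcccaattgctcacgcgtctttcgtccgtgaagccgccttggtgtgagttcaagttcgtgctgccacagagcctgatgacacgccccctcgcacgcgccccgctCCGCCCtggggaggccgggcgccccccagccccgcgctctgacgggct
Tnc has the lowest share of G and C in these windows, 44.8%, where Ltbp2 has 61.6%, Vcan 62.4% and Fbln5 65.2%, and it alone of the 4 holds TATAAA. Over the 29 genes of the set with an entry, GGGCGG was in 21 of 39 windows (53.8%), beside 32.7% of all 32851 windows. TATAAA was in 9 windows (23.1%, beside 12.4%), those of Aspn, Ccn1, Ecm1, Ogn, Postn, Spp1, Thbs2 and Tnc. Counted from the gene's start, it began at -25 in Ccn1, -26 in Postn and -27 in Ecm1. In the other genes it began at -126 or farther upstream, with -126 in Thbs2 and in the printed Tnc window. The AP-1 motif TGANTCA was in 2 (5.13%, beside 6.75%) and the TEAD motif GGAATG in 5 (12.8%, beside 12.6%), where N is any base, both strands were searched and matches of different motifs may overlap. These matches are descriptions of letters, windows of 1 gene can share bases, and nothing was measured here at these sites.

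Among the matricellular and adhesive glycoproteins, 5 of 12 tested genes were higher on day 1 (41.7%) and 4 lower (33.3%). On day 3, 6 were higher (50%) and 1 lower (8.33%), and 8 were higher on day 3 than on day 1 (66.7%). Over all genes these shares were 10.7% and 17.9%, 13.6% and 12.5%, and 9.66%. The largest rise of the whole set was that of Cthrc1, a secreted protein with a short collagen-like stretch that is known from activated fibroblasts. Its signals were 120, 163 and 115 on day 0, 812, 739 and 618 on day 1 and 3907, 4560 and 3654 on day 3. The days did not overlap, and each day stood above the one before. The log2 change was 2.45 ± 0.17 (BH-adjusted p = 1.91e-06) on day 1 and 4.94 ± 0.17 (BH-adjusted p = 1.60e-08) on day 3, a 30.6-fold rise.

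Tenascin-C (Tnc), an anti-adhesive protein of healing wounds, gave signals of 371, 373 and 376 on day 0, 1410, 818 and 863 on day 1 and 3869, 5336 and 3681 on day 3. The mice of day 0 lay close together, and the days did not overlap. It rose by 1.42 ± 0.20 (BH-adjusted p = 0.000572) on day 1 and 3.50 ± 0.20 (BH-adjusted p = 1.02e-06) on day 3, an 11.3-fold rise, and the step from day 1 to day 3 was 2.09 ± 0.20 (BH-adjusted p = 0.000114).

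Of the CCN family of secreted matrix-associated signaling proteins, Ccn2 (connective tissue growth factor) gave signals of 792, 555 and 468 on day 0, 2207, 1652 and 1739 on day 1 and 4835, 5671 and 3761 on day 3. Its days did not overlap either, with changes of 1.65 ± 0.21 (BH-adjusted p = 0.000223) on day 1 and 2.99 ± 0.21 (BH-adjusted p = 3.41e-06) on day 3. Ccn4 gave 124, 91 and 102 on day 0, 149, 89 and 97 on day 1 and 643, 815 and 582 on day 3. For Ccn4 days 0 and 1 overlapped and day 3 stood above both: the change was 0.05 ± 0.22 (BH-adjusted p = 0.878) on day 1 and 2.68 ± 0.22 (BH-adjusted p = 1.09e-05) on day 3. Ccn1, a relative that cells make early after stimulation, had no call in any comparison, with a log2 change of -0.21 ± 0.12 on day 1 and -0.23 ± 0.12 on day 3, although 2 of its 3 other probe sets were called lower on both days.

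The thrombospondins, which bind cells and activate latent TGF-beta (Thbs1) or restrain vessel growth, had different time courses. Thbs1 gave signals of 2880, 2433 and 2689 on day 0, 8898, 6730 and 6863 on day 1 and 6412, 8021 and 6367 on day 3. All primed mice lay above day 0, by 1.48 ± 0.14 (BH-adjusted p = 2.29e-05) on day 1 and 1.37 ± 0.14 (BH-adjusted p = 3.95e-05) on day 3, and the primed days overlapped, with a difference of -0.11 ± 0.14 (BH-adjusted p = 0.619). Thbs2 gave 1539, 1966 and 2213 on day 0, 1578, 1582 and 1509 on day 1 and 3571, 3390 and 3211 on day 3, so days 0 and 1 overlapped and day 3 stood above both. Its change was -0.28 ± 0.13 (BH-adjusted p = 0.136) on day 1 and 0.85 ± 0.13 (BH-adjusted p = 0.000913) on day 3. Platelets carry Thbs1 as well, and of the 4 platelet markers tested Pf4 and Ppbp rose on both days while the other 2 had no call; the list's mean log2 signal relative to day 0 was 1.77 to 2.44 on the arrays of day 1 and 1.74 to 1.87 on those of day 3, and its part in the Thbs1 signal was not tested.

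**Figure D2:**
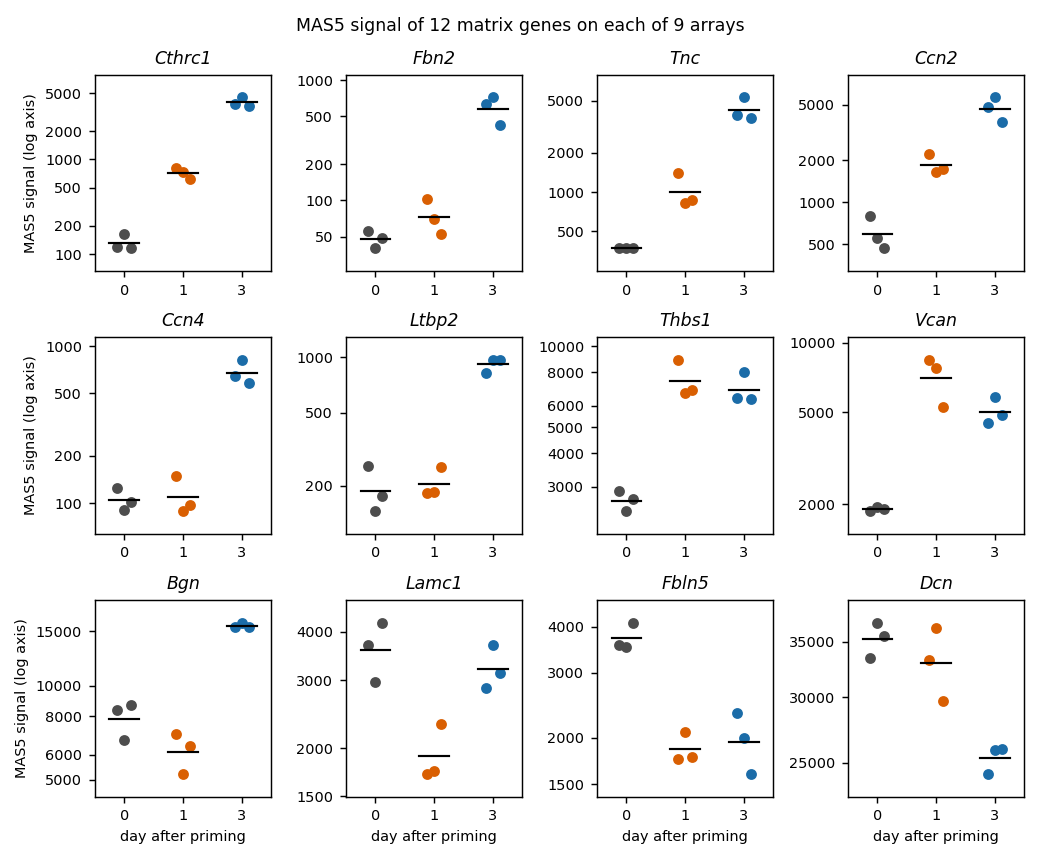
MAS5 signal (log axis, a scale of its own for each gene) of 12 genes against the day after priming; each point is 1 mouse and each line the geometric mean of 3. Cthrc1, Tnc and Ccn2 climb over both steps, Fbn2, Ccn4 and Ltbp2 stand apart on day 3, Thbs1 and Vcan are high from day 1, and Lamc1 dips on day 1.

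Fibronectin (Fn1), the main adhesive protein of the provisional matrix, was lower on day 1, at -0.44 ± 0.10 (BH-adjusted p = 0.00897), and was back in the range of day 0 on day 3 with a change of 0.06 ± 0.10 (BH-adjusted p = 0.686). A second, dimmer Fn1 probe set was called higher on day 3, by 0.92, so the 2 probe sets differ on whether Fn1 exceeded its day 0 level. Periostin (Postn), which helps to assemble and cross-link fibers, ran from 16647 to 19189 on day 0, 9893 to 12873 on day 1 and 20884 to 21407 on day 3. It fell by 0.68 ± 0.10 on day 1 (BH-adjusted p = 0.000869) and rose from there by 0.93 ± 0.10 (BH-adjusted p = 0.000245). All mice of day 3 lay above day 0, by 0.25 ± 0.10 (BH-adjusted p = 0.0974), without a call. That difference was called with quantile normalization (0.37, adjusted p = 0.0168) or with only the 6 arrays compared (0.0275). Sparc, a collagen-binding protein, also fell on day 1 and rose from there, on a smaller scale. Its changes were -0.24 ± 0.08 (BH-adjusted p = 0.0331) on day 1 and 0.30 ± 0.08 (BH-adjusted p = 0.0227) from day 1 to day 3. These Sparc calls were lost without some single arrays (adjusted p up to 0.100 and up to 0.0997, respectively). With median centring the Sparc changes shrank to -0.12 (adjusted p = 0.331) and 0.18 (adjusted p = 0.212), and neither was called. Tgfbi, an adhesive protein induced by TGF-beta and also made by macrophages, was higher on day 1, by 0.57 ± 0.12 (BH-adjusted p = 0.00542), with no call on day 3. Ecm1, which binds other matrix proteins, was lower on both days, at -0.72 ± 0.13 (BH-adjusted p = 0.00258) and -0.67 ± 0.13 (BH-adjusted p = 0.00344).

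Elastic fibers are built from elastin on microfibrils of fibrillin, with fibulins, emilins and latent TGF-beta binding proteins (LTBPs) as partners. Of 12 tested genes of this group 2 were higher and 5 lower on day 1, 5 were higher and 4 lower on day 3, and 5 were higher on day 3 than on day 1. The rises made up 16.7%, 41.7% and 41.7% of the group in these comparisons, beside 10.7%, 13.6% and 9.66% among all genes tested. The falls against day 0 made up 41.7% and 33.3%, beside 17.9% and 12.5%. Fibrillin-2 (Fbn2), the fibrillin of developing tissue, gave signals of 56, 40 and 49 on day 0, 103, 70 and 53 on day 1 and 630, 721 and 421 on day 3. It was near the detection limit before day 3, with 2 of 3 arrays called present on day 0 and 2 of 3 on day 1. Days 0 and 1 overlapped and day 3 lay above both. The change was 0.60 ± 0.28 (BH-adjusted p = 0.124) on day 1 and 3.59 ± 0.28 (BH-adjusted p = 6.87e-06) on day 3, a 12.1-fold rise of uncertain size. Fbn2 passed the filter through day 3 only, the day on which it was high. Its day 3 p is therefore not independent of the filter.

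Ltbp2, which binds fibrillin, gave 258, 146 and 177 on day 0, 183, 186 and 252 on day 1 and 823, 967 and 966 on day 3. The first 2 groups overlapped and day 3 stood above them, with 0.12 ± 0.21 (BH-adjusted p = 0.69) on day 1 and 2.28 ± 0.21 (BH-adjusted p = 2.30e-05) on day 3. Ltbp1, which tethers latent TGF-beta to the matrix, was lower on both days, at -0.65 ± 0.14 (BH-adjusted p = 0.00727) and -0.69 ± 0.14 (BH-adjusted p = 0.00462), and a dimmer probe set of it was not called.

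Emilin1, a glycoprotein at the surface of elastic fibers, gave 231, 141 and 241 on day 0, 372, 357 and 311 on day 1 and 635, 702 and 455 on day 3. All mice of day 1 lay above day 0 and all of day 3 above day 1, with 0.80 ± 0.22 (BH-adjusted p = 0.0218) on day 1 and 1.56 ± 0.22 (BH-adjusted p = 0.000482) on day 3. The day 1 call was lost without day 0 replicate 2 (adjusted p = 0.058), day 1 replicate 1 (0.0696) or day 1 replicate 2 (0.0604). The step from day 1 to day 3 was 0.77 ± 0.22 (BH-adjusted p = 0.0414). This call was lost without any 1 of 5 arrays (adjusted p of 0.0647 to 0.157). It was also lost with median centring (0.0807), quantile normalization (0.0824), no filter (0.0693) or no variance trend (0.0586). Emilin2 was higher on both days as well, by 0.77 ± 0.12 (BH-adjusted p = 0.000785) and 0.67 ± 0.12 (BH-adjusted p = 0.00168).

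The fibulins, proteins that bridge elastic fibers, basement membranes and proteoglycans, parted ways. Fbln2 gave 2119, 1995 and 2782 on day 0, 1654, 1686 and 1763 on day 1 and 4727, 5388 and 4246 on day 3. Day 1 lay just under day 0, at -0.42 ± 0.14 (BH-adjusted p = 0.0428), a call that was lost without any 1 of 5 arrays (adjusted p of 0.0625 to 0.166) or with median centring (-0.30, adjusted p = 0.128), and day 3 lay above both, by 1.07 ± 0.14 (BH-adjusted p = 0.00026) against day 0. Fbln5, which is needed for elastic fiber assembly, gave 3575, 3531 and 4099 on day 0, 1754, 2075 and 1776 on day 1 and 2341, 1997 and 1598 on day 3. It was the gene of the set with the largest called fall, -1.0 ± 0.14 (BH-adjusted p = 0.000609) on day 1 and -0.93 ± 0.14 (BH-adjusted p = 0.000856) on day 3, with no overlap with day 0. Fbln1 gave 2024, 1981 and 2391 on day 0, 1233, 1309 and 1263 on day 1 and 1121, 1200 and 1112 on day 3 and fell in the same way, by 0.74 ± 0.11 on day 1 (BH-adjusted p = 0.000795) and by 0.89 ± 0.11 on day 3 (BH-adjusted p = 0.000199).

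For elastin itself (Eln) no change was called, with -0.21 ± 0.19 on day 1 and -0.15 ± 0.19 on day 3. Of the microfibril-associated proteins, Mfap2 was lower on day 1, at -0.60 ± 0.12 (BH-adjusted p = 0.00462), and higher on day 3 than on day 1, by 0.58 ± 0.12 (BH-adjusted p = 0.00881), with 1 of 3 arrays called present on day 1. Mfap5 had no call, at 0.49 ± 0.15 (BH-adjusted p = 0.0501) from day 1 to day 3, where its dimmer probe set was called lower on day 1 and higher on day 3. Efemp1 (fibulin-3) was lower on day 3, at -0.52 ± 0.13 (BH-adjusted p = 0.0112), a call lost without day 0 replicate 3 (adjusted p = 0.053).

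**Figure D3:**
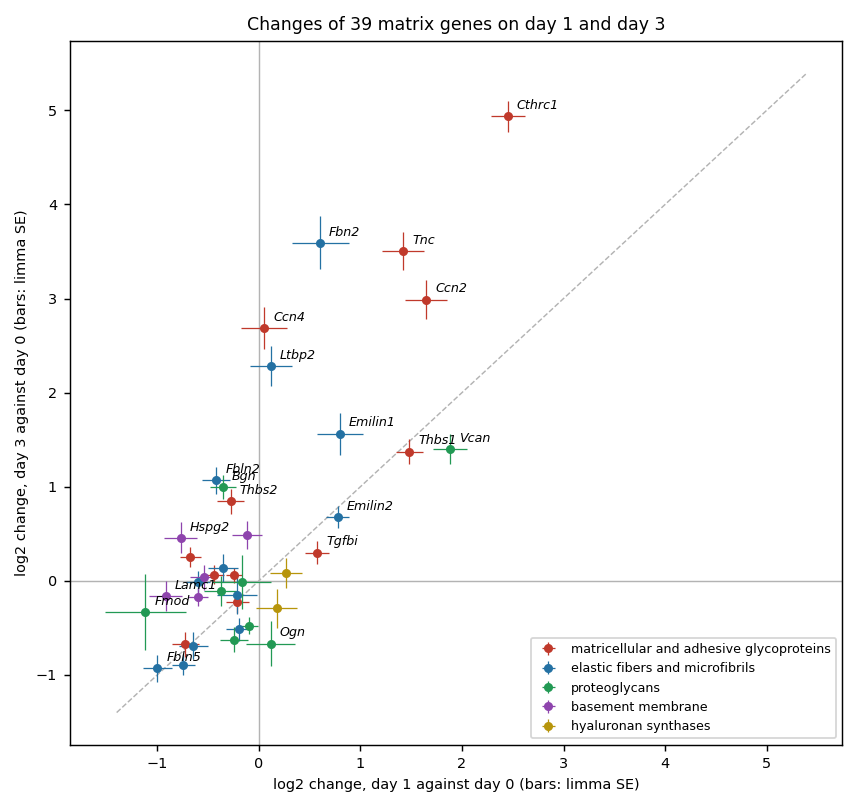
Log2 change on day 3 against the log2 change on day 1 for the 39 genes, both relative to the same day 0 arrays; bars are limma standard errors and the dashed line marks equal changes. Cthrc1, Fbn2, Tnc, Ccn2, Ccn4 and Ltbp2 lie far above the line, Thbs1 and Vcan lie at or below it, and Fbln5 sits at -1.0 and -0.93.

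Proteoglycans carry chondroitin, dermatan or keratan sulfate chains on a protein core. Of the 8 tested here 1 was higher on day 1 (12.5%, near the 10.7% of all genes) and 0 were lower (17.9% of all genes). On day 3, 2 were higher (25%, against 13.6% of all genes) and 2 lower (25%, against 12.5%). Versican (Vcan), the large hyaluronan-binding proteoglycan of provisional matrix, gave signals of 1870, 1944 and 1909 on day 0, 8429, 7795 and 5278 on day 1 and 4504, 5850 and 4850 on day 3. All primed mice lay above day 0, by 1.88 ± 0.16 (BH-adjusted p = 1.52e-05) on day 1 and 1.40 ± 0.16 (BH-adjusted p = 0.000124) on day 3. The primed days overlapped, with a difference of -0.48 ± 0.16 (BH-adjusted p = 0.0729), and this fall to day 3 was called without day 1 replicate 3 (adjusted p = 0.004) or with median centring (-0.60, adjusted p = 0.0459).

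Biglycan (Bgn), a small leucine-rich proteoglycan that also alerts immune cells when shed, gave 8381, 6681 and 8658 on day 0, 6998, 5217 and 6388 on day 1 and 15461, 15950 and 15480 on day 3. Days 0 and 1 overlapped and day 3 lay above both, by 0.99 ± 0.13 (BH-adjusted p = 0.000231) against day 0 and 1.34 ± 0.13 (BH-adjusted p = 0.000106) against day 1. On day 1 the change was -0.35 ± 0.13 (BH-adjusted p = 0.0583), without a call. The dimmer probe sets of Bgn were called lower on day 1 (adjusted p = 0.0483 and 0.0349). With quantile normalization (0.0214) or probe sets averaged (0.0405) Bgn was called lower on day 1 too. Decorin (Dcn), its close relative that binds collagen fibrils and TGF-beta, went the other way with 33441, 36874 and 35511 on day 0, 33280, 36346 and 29697 on day 1 and 24247, 25889 and 25954 on day 3. All mice of day 3 lay below those of the other days, at -0.48 ± 0.09 (BH-adjusted p = 0.00247) against day 0 and -0.38 ± 0.09 (BH-adjusted p = 0.0155) against day 1. The second of these calls was lost without day 3 replicate 1 (adjusted p = 0.0763) or replicate 2 (0.0512). These Dcn signals lie near the top of the arrays' scale, where the highest signal of any probe set was 36585 to 43081 per array, and a second, dim Dcn probe set had no call, at 0.72 on day 1 and 0.31 on day 3. With probe sets averaged, Dcn stood at -0.08 (adjusted p = 0.793) on day 3 against day 0 and had no call. Lumican (Lum), another organizer of collagen fibrils, gave 15427, 18812 and 15763 on day 0, 16354, 15280 and 11075 on day 1 and 11063, 11016 and 10262 on day 3, with day 3 below day 0 by 0.62 ± 0.14 (BH-adjusted p = 0.00691).

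The other 4 small leucine-rich proteoglycans had no call in any comparison. Osteoglycin (Ogn) came closest on day 3, when all its mice lay below those of the other days, at -0.78 ± 0.24 (BH-adjusted p = 0.0507) against day 1 and -0.67 ± 0.24 (BH-adjusted p = 0.0618) against day 0. The fall from day 1 was called with median centring (-0.91, adjusted p = 0.0388). Next came fibromodulin (Fmod) on day 1, at -1.12 ± 0.40 (BH-adjusted p = 0.0557), where its 3 mice spread from 78 to 318. Prelp stood at -0.38 ± 0.16 and -0.10 ± 0.16 and asporin (Aspn) at -0.17 ± 0.29 and -0.01 ± 0.29 on days 1 and 3. The spread between the 3 mice of day 1 was wide for Aspn too, from 1820 to 4797.

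The basement membrane genes encode laminin chains, the linker nidogen-1 (Nid1) and the heparan sulfate proteoglycan perlecan (Hspg2). On day 1, 4 of 5 were lower (80%) and 0 higher, and on day 3, 1 was higher than on day 0 (20%). All 5 were higher on day 3 than on day 1. Over all genes 17.9% were lower on day 1, 13.6% higher on day 3 and 9.66% higher from day 1 to day 3. Each call was read from the gene's brightest probe set. From day 1 to day 3 all 5 also had a dimmer probe set without a call. Its adjusted p was 0.399 for Lamc1, 0.242 for Lama4 and 0.0661 for Hspg2. For Lamb1, 1 dimmer probe set was called higher (0.0131) and 1 was not (0.068). Lamc1, the gamma chain shared by most laminins, gave 3704, 2974 and 4222 on day 0, 1716, 1743 and 2305 on day 1 and 2855, 3695 and 3139 on day 3. Day 1 lay below day 0 by 0.92 ± 0.16 (BH-adjusted p = 0.00218), and day 3 against day 0 had no call, at -0.16 ± 0.16 (BH-adjusted p = 0.494). Hspg2 gave 1219, 920 and 1358 on day 0, 627, 639 and 764 on day 1 and 1550, 1800 and 1414 on day 3, with -0.77 ± 0.16 (BH-adjusted p = 0.00581) on day 1 and 1.23 ± 0.16 (BH-adjusted p = 0.000685) from day 1 to day 3, while its second probe set had no call, at -0.14 on day 1.

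Nid1 gave 15205, 13001 and 15071 on day 0, 9747, 8937 and 9868 on day 1 and 12413, 13753 and 12295 on day 3. It fell by 0.60 ± 0.09 on day 1 (BH-adjusted p = 0.00111) and rose by 0.43 ± 0.09 (BH-adjusted p = 0.0127) from there to day 3. Its dimmer probe sets had no call for that rise (adjusted p = 0.0597 and 0.799). With probe sets averaged, the rise was 0.37 (adjusted p = 0.118) and had no call. In that run Nid1 was called lower on day 3 than on day 0 (-0.48, adjusted p = 0.0329). The beta chain Lamb1 moved likewise, at -0.54 ± 0.13 (BH-adjusted p = 0.0103) on day 1 and 0.58 ± 0.13 (BH-adjusted p = 0.0127) from day 1 to day 3. Lama4, the alpha chain of vessel and fat cell basement membranes, had no call on day 1 and was higher on day 3, by 0.49 ± 0.15 (BH-adjusted p = 0.0323). Its second, dimmer probe set had no call, at -0.0039 on day 3, and the mean of both probe sets gave 0.24 (adjusted p = 0.223). Calls from day 1 to day 3 were lost without day 3 replicate 2 for Lamc1 (adjusted p = 0.0582), Nid1 (0.0684), Lamb1 (0.0667) and Lama4 (0.0963), and the Lama4 call against day 0 was lost without any 1 of 4 arrays (0.0578 to 0.139). Median centring ended the calls from day 1 to day 3 of Nid1 (adjusted p = 0.0602) and Lama4 (0.0598).

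Has1 and Has2 make hyaluronan at the cell surface. Has1 gave signals of 5967, 8079 and 9644 on day 0, 7761, 9322 and 9258 on day 1 and 5625, 8704 and 5164 on day 3, and the 3 days overlapped, with 0.18 ± 0.20 on day 1 and -0.29 ± 0.20 on day 3. Has2 gave 1323, 1837 and 1805 on day 0, 2159, 1862 and 1920 on day 1 and 1501, 2065 and 1671 on day 3, with all mice of day 1 above day 0 by 0.27 ± 0.16 (BH-adjusted p = 0.211) and an overlap on day 3. No comparison called either of them, and with 3 mice per day and standard errors of 0.16 to 0.20 a modest change could be missed.

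**Figure D4:**
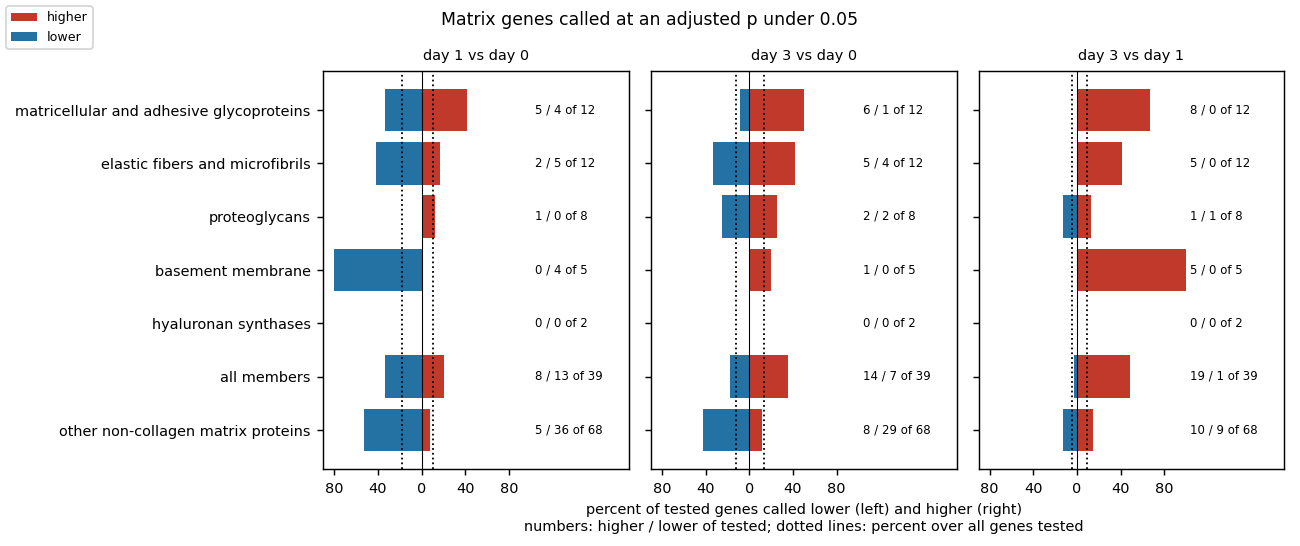
Percent of tested genes called higher (red, to the right) and lower (blue, to the left) at an adjusted p under 0.05 in each role group, in all 39 genes and in other non-collagen matrix proteins; numbers give genes higher and lower of those tested, and dotted lines the percent over all genes. The bar of basement membrane genes points to lower on day 1 (4 of 5) and to higher from day 1 to day 3 (5 of 5). Each gene is read from its brightest probe set.

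Sorted by time course, 7 of the 39 genes exceeded day 0 on both primed days: Tnc, Thbs1, Ccn2, Cthrc1, Emilin1, Emilin2 and Vcan. Lower on both days were 4, namely Ecm1, Ltbp1, Fbln1 and Fbln5. A fall on day 1 followed by a rise to day 3 was seen for 9, which are Fn1, Postn, Sparc, Fbln2, Mfap2 and the basement membrane genes Nid1, Lamb1, Lamc1 and Hspg2. Of these 9, 8 had no call on day 3 against day 0, and Fbln2 ended higher. Without some single arrays the fall of Sparc and Fbln2 and the rise of Sparc, Nid1, Lamb1 and Lamc1 lost their calls. Median centring ended both Sparc calls, the Fbln2 fall and the Nid1 rise. The second Hspg2 probe set called neither its fall nor its rise. A level on day 3 above both other days was called for 11 genes, 4 of which were higher on day 1 already (Tnc, Ccn2, Cthrc1 and Emilin1) and 7 of which were not (Thbs2, Ccn4, Fbn2, Ltbp2, Fbln2, Bgn and Lama4); of these 11 calls, those of Emilin1 and Lama4 were lost under the settings given with them. Lower on day 3 with no call on day 1 were 3, Efemp1, Dcn and Lum. In all, 30 genes were called at least once and 9 never. These classes were counted within the set only. No share over all genes stands beside them, so whether their sizes are unusual is not shown.

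For 25 of the 39 genes several probe sets passed the filter. In each comparison the probe sets gave the same call for 18 of the 25, and for 0 of the 25 were they called in opposite directions. Calls differed on day 1 for Bgn, Ccn1, Hspg2, Ltbp1, Mfap5, Sparc and Vcan. On day 3 they differed for Ccn1, Dcn, Fn1, Lama4, Ltbp1, Mfap5 and Vcan. From day 1 to day 3 they differed for Dcn, the only gene called lower, for Mfap5 and for every basement membrane gene of the set.

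Other non-collagen matrix proteins, a list of 91 genes outside the set of which 68 were tested, moved mainly down. On day 1, 5 were higher (7.35%) and 36 lower (52.9%), and on day 3, 8 (11.8%) and 29 (42.6%). From day 1 to day 3 there were 10 (14.7%) and 9 (13.2%). Over all genes these shares were 10.7% and 17.9%, 13.6% and 12.5%, and 9.66% and 4.54%. The medians were -0.62, -0.50 and 0.11. Prg4 (lubricin), a lubricating proteoglycan, had the largest rise, 4.57 ± 0.19 (BH-adjusted p = 4.26e-08) on day 1 and 3.75 ± 0.19 (BH-adjusted p = 2.46e-07) on day 3. Among genes detected on all arrays, the falls on day 3 were led by Fbln7, a relative of the fibulins above, at -1.98 ± 0.32 (BH-adjusted p = 0.00119), and by Smoc2, a calcium-binding relative of Sparc, at -1.88 ± 0.15 (BH-adjusted p = 8.73e-06). Ccn3, another CCN family member, was lower on day 1 and higher on day 3, at -1.05 ± 0.15 and 1.22 ± 0.15. Spock3, a testican proteoglycan, was called lower on day 3 (BH-adjusted p = 0.000772), but its mean signal was 55.9 on day 0, and on day 3 it was detected on 0 of 3 arrays, so the fall has no measured size. Epyc, a small cartilage proteoglycan, was called higher on day 1 (BH-adjusted p = 0.0106), with a mean signal of 65.7 on day 0, when 1 of 3 arrays detected it, and 262 on day 1, when all 3 did.

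Of 35 tested enzymes that build or modify sulfated sugar chains, 4 were higher and 6 lower on day 1, and 11 were higher and 2 lower on day 3, with medians of -0.02 and 0.14. The day 1 shares, 11.4% and 17.1%, lie near the 10.7% and 17.9% of all genes, and those of day 3 were 31.4% and 5.71%, beside 13.6% and 12.5%. On day 3 the heparan sulfate sulfotransferase Hs6st2 was higher by 1.29 ± 0.15 (BH-adjusted p = 0.000113) and Csgalnact1, which starts chondroitin chains, by 1.17 ± 0.18 (BH-adjusted p = 0.000969). The chondroitin synthase Chsy3 was called higher too (BH-adjusted p = 0.00351), with a mean signal of 30.9 on day 0, when 1 of 3 arrays detected it, and 88.3 on day 3, when all 3 did. The heparan sulfate sulfotransferase Hs3st1 was lower, at -1.31 ± 0.18 (BH-adjusted p = 0.000334). Lower on day 1 were Chst15, which adds a further sulfate to chondroitin, at -0.67 ± 0.18 (BH-adjusted p = 0.0196), and Sulf2, which trims sulfate from heparan chains, at -0.64 ± 0.12 (BH-adjusted p = 0.00361).

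Among 11 tested genes for hyaluronan binding and breakdown, 2 were higher and 1 lower on day 1 and 5 were higher and 2 lower on day 3, with medians of 0.18 and 0.20. Rises made up 18.2% of this list on day 1 and 45.5% on day 3, beside 10.7% and 13.6% among all genes tested. Falls made up 9.09% and 18.2% of it, beside 17.9% and 12.5%. Cd44, the main hyaluronan receptor and also a marker of activated leukocytes, was higher on both days, by 1.61 ± 0.11 (BH-adjusted p = 1.61e-06) and 1.72 ± 0.11 (BH-adjusted p = 1.62e-06). Cemip, which starts hyaluronan breakdown, was called higher on day 3 (BH-adjusted p = 0.00353), when its mean signal was 145 on 3 of 3 arrays called present, but it was detected on 0 of 3 arrays of day 0, so the rise has no measured size. Hmmr, a hyaluronan-binding protein of dividing cells, was higher on day 3 by 2.18 ± 0.18 (BH-adjusted p = 1.09e-05). Stab1, a scavenger receptor, was higher by 1.22 ± 0.16 (BH-adjusted p = 0.000334). Itih5, of a family whose heavy chains bind hyaluronan, was lower on both days, at -1.08 ± 0.13 (BH-adjusted p = 0.000149) and -0.97 ± 0.13 (BH-adjusted p = 0.000277), and Lyve1, the hyaluronan receptor of lymphatic vessels and some macrophages, was lower on day 3 at -0.71 ± 0.13 (BH-adjusted p = 0.00272).

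Markers of the cells in the digest moved over the same days. Over all genes 10.7% were called higher and 17.9% lower on day 1, and 13.6% and 12.5% on day 3. The mean log2 signal of 15 stromal markers relative to day 0 was -0.43 to -0.33 on the arrays of day 1 and -0.42 to -0.21 on those of day 3, with 4 of 15 lower on each day and 0 and 1 higher. The 14 endothelial markers, from cells that make basement membrane, stood at -0.67 to -0.55 on day 1, with 9 lower. On day 3 they stood at -0.40 to -0.20, with 4 lower. From day 1 to day 3, 3 of the 14 were called higher (21.4%, against 9.66% of all genes). Lamc1, Nid1, Lamb1 and Hspg2 fell and rose over the same days, while Lama4 had no call on day 1 (-0.11, BH-adjusted p = 0.579). The 9 pericyte and smooth muscle markers stood at -0.68 to -0.49 and -0.83 to -0.44, with 5 lower on each day. Their part in the changes of the matrix genes was not tested.

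The lists of myeloid markers stood above day 0 in their means. The 8 neutrophil markers stood at 3.35 to 3.70 on day 1, with 6 higher, and at 1.87 to 2.36 on day 3, with 5 higher and 1 lower, and the 6 monocyte markers at 1.81 to 2.27, with 5 higher, and 1.54 to 1.56, with 4 higher. The 11 macrophage markers stood at 0.76 to 1.08 on day 1, with 6 higher and 1 lower, and at 0.81 to 1.09 on day 3, with 6 higher. The largest of their changes on day 1 were those of Fcgr1 (3.91) and Msr1 (3.27), where the median of the 11 was 0.39, and the macrophage growth factor receptor Csf1r was lower, at -0.47 ± 0.11 (BH-adjusted p = 0.00885). The 9 lymphocyte markers were below day 0, at -1.69 to -0.37 on day 1, with 5 lower, and at -1.63 to -1.01 on day 3, with 7 lower and 0 higher on either day. Of 6 mesothelial markers 4 were absent on all arrays, the defining markers Msln and Upk3b among them. In the same arrays the stromal marker Pdgfra stood at -0.02 ± 0.14 (BH-adjusted p = 0.917) on day 1 and -0.18 ± 0.14 (BH-adjusted p = 0.38) on day 3. Thy1 had the lowest day 1 change of the 15 stromal markers, -1.19 ± 0.13 (BH-adjusted p = 6.90e-05), where their median was -0.33. What the shift in leukocyte markers does to the signals of Tgfbi, Emilin2, Thbs1 and Vcan, which leukocytes also make, was not tested.

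**Figure D5:**
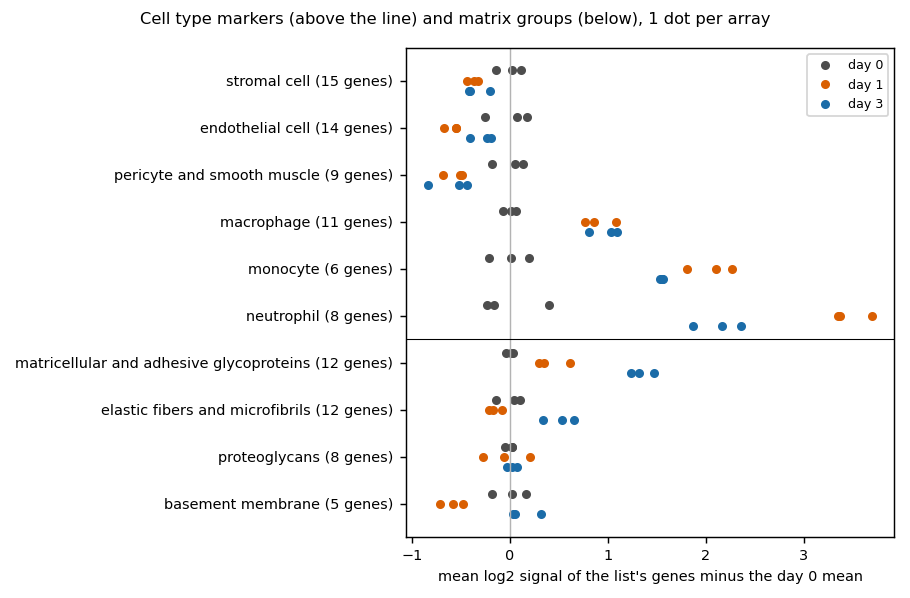
Mean log2 signal of each list's genes minus the day 0 mean (horizontal axis), 1 dot per array, for 6 lists of cell type markers above the line and 4 groups of matrix genes below it. The matricellular group lies at 0.30 to 0.62 on day 1 and 1.24 to 1.47 on day 3, while stromal markers lie below 0 on both days, and basement membrane genes and endothelial markers are lowest on day 1.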

How the data were processed

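Total RNA of SVFs was labelled with biotin and hybridised to Affymetrix Mouse430_2 arrays, 1 for each of 3 mice on days 0, 1 and 3. The authors summarized the probes with MAS5 (version not given in the sources used here) and scaled each array. The deposited files give for 45101 probe sets the MAS5 signal, an intensity on a linear scale, with a detection call and a detection p-value, and the authors had not log-transformed it. They hold no comparisons by the authors. The deposited values of the whole series and of each sample matched to 5e-04 percent. Scaling every array to 1 mean makes a change relative to all other transcripts, so a shift shared by most genes is not seen.

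Symbols came from the platform annotation (34945 probe sets with 1 symbol, 932 with several, which were not used) and were updated through RefSeq. A gene was read from its brightest probe set that was detected (called present) on every array of 1 or more of the days, which left 11796 genes. A gene could thus pass through only the days on which it was high, as Fbn2 did through day 3 and Cemip without day 0. The p-values of such genes are not independent of the filter. Log2 signals, with nothing added, were fitted in R 4.3.3 with limma 3.58.1 (lmFit, contrasts.fit, eBayes with a variance trend, files read by data.table version 1.17.8), all 9 arrays in 1 fit with day as the factor and 6 residual degrees of freedom. Tests were two-sided with Benjamini-Hochberg adjustment over the 11796 genes. The procedure was tested on simulated data with known changes. With 3 arrays per day, their number limits the precision, and p-values measure the spread between mice. Groups came from the sample titles.

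The member genes, the other gene lists and the marker lists were chosen with earlier results of these data known. In each role group the called genes with the largest change against day 0 are given with every array's signal (up to 6 matricellular, 6 elastic fiber, 5 proteoglycan and 3 basement membrane genes, and both hyaluronan synthases). Genes without a call are given by their change, and of each further list up to 4 called genes with the largest change, with up to 2 that moved the other way. Postn, Fmod and Aspn are given with ranges of signal, Pdgfra, Thy1, Pf4, Ppbp, Fcgr1, Msr1, Csf1r, Msln and Upk3b are named, and the 4 promoters are printed, as choices made after their values were seen. The lists of T and B lymphocyte, mature adipocyte, skeletal muscle, epithelial and platelet markers were read as well: of 4 tested adipocyte markers 0 were higher and 1 and 4 were lower on days 1 and 3, and of 4 muscle and 2 epithelial markers 0 were called. Promoter windows came from RefSeq (GRCm38.p6), and since the arrays name no genome build, no coordinates are given for probe sets. Alternatives are those named in the closing section.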

Additional observations from a re-analysis of the deposited data

How the results depend on the processing

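No gene of the set was called in opposite directions by any alternative run. A 2-fold limit left 5 genes higher and 1 lower on day 1, 10 and 0 on day 3, and 10 and 0 from day 1 to day 3; the methods' ANOVA with that limit gave the same counts in a one-way form, unadjusted and after Benjamini-Hochberg, and in a repeated-measurements form unadjusted, but 5 and 0, 9 and 0, and 9 and 0 in the latter after Benjamini-Hochberg. The count of genes lower on day 3 than on day 1, which is 1 (Dcn) as reported, was 4 with median centring, 2 with 16 or 64 added to the signals, with presence on all 9 arrays, with only the 6 arrays compared or with the replicate block, and 0 with no filter, probe sets averaged per gene, no variance trend or an adjusted p under 0.01. With the replicate block 8 genes were higher and 13 lower on day 1, 14 and 8 on day 3, and 20 and 2 from day 1 to day 3, where on day 1 the Fbln2 call was lost (adjusted p = 0.0541) and a call of Bgn as lower gained (0.0376); the numbers do not pair the mice, since deviations of arrays with the same number correlated at -0.15 to 0.33. With any 1 array left out the counts were 7 to 9 higher and 11 to 15 lower on day 1, 13 to 16 and 7 to 8 on day 3, and 13 to 20 and 0 to 5 from day 1 to day 3, with the 13 without day 3 replicate 2, the 5 without day 1 replicate 3 and the 0 without day 3 replicate 1. Of the calls, 18 of 21, 19 of 21 and 13 of 20 were kept without any array. Quantile normalization gave 8 and 15, 16 and 8, and 19 and 1, and median centring 8 and 11, 14 and 7, and 15 and 4. The cause of these differences was not tested. Signals near the detection limit, as for Fbn2 before day 3, limit what a change can show.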
